A study of Mus musculus with 6 samples.

Results

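The genes described here are 44 mouse genes of mitosis and of the mitotic spindle, chosen as a list by their known function, with earlier results of these data known. They were found by their symbols in the array's annotation, and for each gene the probe set (a group of short probes against 1 transcript) of highest mean signal was kept. By this rule 43 of the 44 genes had a probe set, out of 18194 genes in all, and all 43 were bright enough to be among the 13645 genes tested. Ccnb1, which encodes a B-type cyclin, had no probe set listed with that gene alone and was not analysed here.

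Transcript levels were measured in regulatory T cells (Treg cells), the CD4 T cells that hold back immune responses, sorted by flow cytometry as nTreg from C57BL/6 mice. Wild-type cells (WT) and Foxo1 knockout cells (Foxo1KO) were measured on 2 arrays each. Foxo1AAA cells carry a constitutively active Foxo1, Foxo1KO/Foxo1AAA cells carry it on top of the knockout, and each of these groups had 1 array. The question put by the design is which genes change in the knockout and whether they return when active Foxo1 is supplied. All groups shared the strain, and no treatment was named. The sources used here do not give the sorting gates, the age of the animals, which part of Foxo1 was deleted and in which cells, or the promoter and site that drive Foxo1AAA. No label says that replicate arrays came from separate mice. The Y-linked Eif2s3y read 3.91 and 10.09 in WT and 4.05 and 9.91 in Foxo1KO, so the arrays of a group did not hold the same RNA. Every p measures only the spread between these arrays, and the number of mice behind each array is not given. Foxo1 itself read, in log2 units, 11.03 and 11.35 in WT, 10.87 and 10.65 in Foxo1KO, 10.71 in Foxo1AAA and 9.66 in Foxo1KO/Foxo1AAA. Against WT it differed by -0.43 in Foxo1KO, -0.48 in Foxo1AAA and -1.54 in Foxo1KO/Foxo1AAA. These values come from the kept probe set of the 4 for Foxo1, and the others are not shown here. Without the position of the deletion the kept probe set cannot check the labels.

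In mitosis the duplicated chromosomes are condensed, captured by the microtubules of the spindle at their kinetochores, and pulled apart once the spindle checkpoint is satisfied. Cdk1 with its cyclins starts the process, Aurora and Polo kinases build the spindle, and the anaphase-promoting complex ends it by marking cyclins and securin for destruction. Most of these genes are transcribed late in the cell cycle and are near silent in resting cells, so their summed transcripts are widely read as a sign of dividing cells. Foxo1 is a forkhead transcription factor that Akt expels from the nucleus. Foxo proteins are known for keeping lymphocytes at rest, and a form that Akt cannot phosphorylate stays nuclear. Treg cells as a population hold a resting part and an activated, dividing part.

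Promoters of genes transcribed late in the cell cycle are known for a pair of elements near the start site: the CCAAT box, and the cell cycle genes homology region, TTTGAA, through which complexes built on the MuvB core hold such genes silent at rest. RefSeq promoters (build GRCm38.p6, 250 bases before to 50 after each start) were listed for 38 of the 44 genes, with 40 promoters because Prc1 and Ect2 had 2 each. Ccna2, Aurkb, Foxm1, Incenp, Kif20a and Tpx2 had no entry. The stretches of 120 bases just before the start are shown for members that the results turn on, to show how both elements lie in promoters of genes that rose, and Pttg1 is shown as a member not called in Foxo1KO. They were picked by hand and show no relation of the motifs to the size of a change. The Cdk1 stretch is chr10:69352913-69353032, Top2a is chr11:99024190-99024309, Cdc20 is chr4:118437344-118437463, Mki67 is chr7:135716380-135716499 and Pttg1 is chr11:43425982-43426101, all on the minus strand. The Ube2c stretch is chr2:164769809-164769928 on the plus strand. Each is printed 5′ to 3′ on the gene's strand, and capitals mark CCAAT or its reverse ATTGG and TTTGAA or its reverse TTCAAA.
Cdk1: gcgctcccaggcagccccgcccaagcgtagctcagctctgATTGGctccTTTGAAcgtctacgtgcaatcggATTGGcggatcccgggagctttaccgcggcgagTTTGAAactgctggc
Top2a: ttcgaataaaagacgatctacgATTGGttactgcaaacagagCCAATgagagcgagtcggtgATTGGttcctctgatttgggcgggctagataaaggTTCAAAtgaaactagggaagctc
Ube2c: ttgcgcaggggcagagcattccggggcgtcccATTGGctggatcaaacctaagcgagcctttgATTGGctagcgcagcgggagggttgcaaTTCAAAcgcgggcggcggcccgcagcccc
Cdc20: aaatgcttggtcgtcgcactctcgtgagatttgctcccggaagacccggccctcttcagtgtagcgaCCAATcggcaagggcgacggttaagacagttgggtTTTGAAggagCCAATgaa
Mki67: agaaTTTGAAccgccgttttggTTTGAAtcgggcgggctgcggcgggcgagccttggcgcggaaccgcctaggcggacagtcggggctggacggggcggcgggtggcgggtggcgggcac
Pttg1: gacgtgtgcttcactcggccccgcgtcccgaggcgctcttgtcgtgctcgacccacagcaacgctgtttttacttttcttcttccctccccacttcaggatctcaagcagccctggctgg

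In these stretches Cdk1 carried 2 CCAAT and 2 TTTGAA matches, Top2a 3 and 1, Ube2c 2 and 1, and Cdc20 2 and 1. Mki67 carried 2 TTTGAA matches and 0 CCAAT matches. Pttg1 carried neither. Over the 300 bases from 250 before to 50 after the start, searched on both strands, CCAAT was present in 31 of the 40 promoters (77.5%), against 37.41% of the 32851 promoters in the table. TTTGAA was present in 29 of 40 (72.5%), against 17.89% of all promoters, and both were present in 26, against 6.95% of all. These letters of CCAAT and TTTGAA do not overlap each other. In 6 promoters, those of Nuf2, Nusap1, Melk, Mad2l1, Birc5 and Pttg1, neither was found in this window, although Nuf2 (1.99 log2 units) and Birc5 (1.93) had the largest differences between Foxo1KO and WT described below. In the 250 bases before the start alone, TTTGAA was present in 13 of 40 promoters (32.5%, against 15.99% of all). CCAAT was present there in 31 (77.5%, against 33.85%). The forkhead motif GTAAACA was found in the 250 bases before the start of 2 of 40 promoters (5.0%), against 3.17% of all promoters. Over the 300 bases it was also found in 2 (5.0%, against 3.65%). Of 4 motifs of the E2F type in those 250 bases, TTGGCGC was found in 4 promoters (10.0%, against 1.97%), TTCGCGC in 2 (5.0%, against 1.28%), and TTCCCGC and TTGCCGC in 0 (against 3.82% and 1.36%). The related motif TTCGAA was found in 2 (5.0%, against 1.34%). A match is a description of the sequence and was not tested as a binding site.

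The arrays that carried Foxo1AAA stood apart from the other 4 in ways that bear on every comparison made with them. Summed signal of the myeloid markers (linear units, 8 genes with a probe set of 8 listed) was 855 and 1122 in WT, 1635 and 1034 in Foxo1KO, 8555 in Foxo1AAA and 10205 in Foxo1KO/Foxo1AAA. Dendritic cell markers (8 of 8) summed to 1107 and 1344, 3477 and 1929, 7966, and 8882 in the same order. B cell markers (6 of 7) summed to 6081 and 6949, 5306 and 3759, 13325, and 11526. Plasma cell markers (5 of 5) summed to 4588 and 4354 on the WT arrays and to between 6749 and 6982 on the other 4 arrays. Xbp1 was the brightest of them (11.77 to 12.26 log2 units) and weighed most in these sums. Jchain read 5.35 and 5.62 in WT, 9.24 and 8.18 in Foxo1KO, 10.72 in Foxo1AAA and 10.40 in Foxo1KO/Foxo1AAA. Sdc1 went the other way, at 7.25 and 7.16 in WT against 6.66 in Foxo1AAA and 6.71 in Foxo1KO/Foxo1AAA. Markers of CD8 T and NK cells (5 of 6) summed to 582 and 606 on the WT arrays and to between 886 and 1190 on the others. Erythroid markers (3 of 5) stayed between 161 and 192 and thymocyte markers (5 of 5) between 1517 and 2219, the latter mostly from Cd1d1 (10.39 to 11.02 log2 units). Treg markers (7 of 7) summed to between 25998 and 32425 on all 6 arrays, although the probe set of Foxp3 was dim (5.10 to 5.58 log2 units) and fell below the filter. Itgam, S100a8, Hba-a1, Rag1, Rag2 and Dntt also fell below it. Markers without a probe set listed with that gene alone, such as Klrb1c and Hbb-b1, were not analysed here. Sex-linked transcripts differed as well: the Y-linked Eif2s3y read 3.91 and 10.09 in WT, 4.05 and 9.91 in Foxo1KO, and 10.59 and 10.56 on the Foxo1AAA and Foxo1KO/Foxo1AAA arrays. Xist, made from the inactive X chromosome of females, read 13.43 and 12.03, 13.14 and 12.59, 6.04 and 6.27. Low Xist with high Eif2s3y therefore occurred together on the Foxo1AAA-bearing arrays alone, and the 2nd WT and Foxo1KO arrays held both transcripts. Presence of the transgene, sex-linked transcripts and myeloid signal cannot be told apart on these arrays, and the part of the latter in the results below was not tested.

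**Figure D1:**
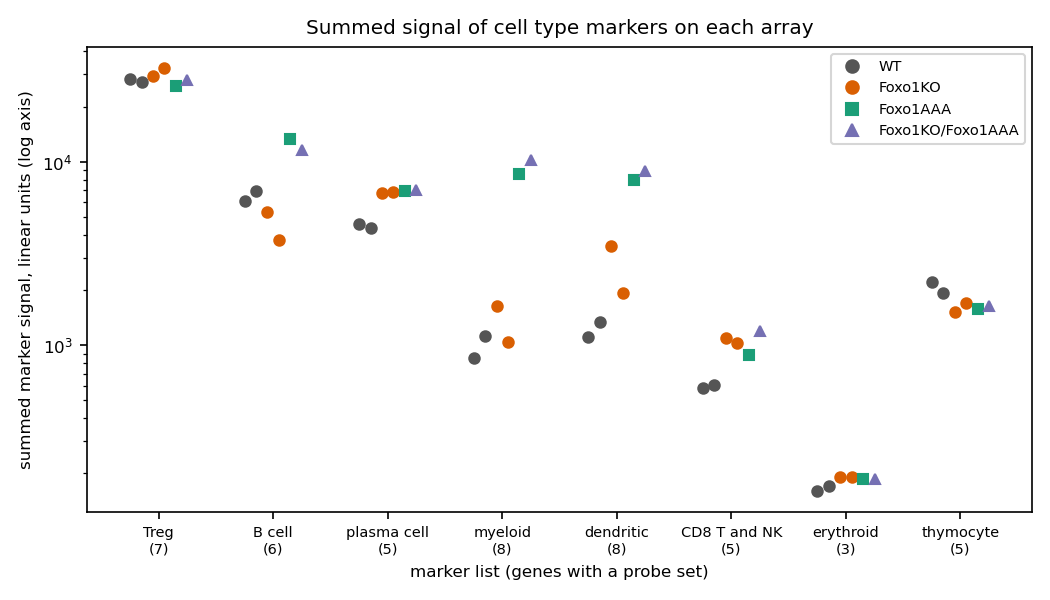
Summed signal of the markers of 8 cell types on each of the 6 arrays, in linear units on a log axis, with 1 point per array. Myeloid and dendritic sums reached 8555 and 7966 on the Foxo1AAA array and 10205 and 8882 on the Foxo1KO/Foxo1AAA array, above every WT and Foxo1KO value, while Treg sums lay between 25998 and 32425.

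Loss of Foxo1 went with higher levels of nearly the whole set of mitosis genes. Of the 43 genes, 41 rose in Foxo1KO against WT and 0 fell (limma, p adjusted by Benjamini-Hochberg across the tested genes, threshold 0.05). Of all 13645 genes tested, 11.2% were called higher and 10.7% lower. The median difference of the 43 genes was 1.56 log2 units, against 0.03 for all tested genes, and 39 of them rose at least 2-fold. Of all 13645 tested genes, 584 were called with a difference of at least 2-fold in either direction. Both Foxo1KO arrays lay above both WT arrays for 42 of the 43 genes, a pattern that 32.7% of all tested genes showed. The same 41 calls came from a fit of the WT and Foxo1KO arrays alone. Of the markers of other cells, 4 of 8 dendritic, 4 of 5 plasma cell, 1 of 8 myeloid and 2 of 5 CD8 T and NK markers were called higher in Foxo1KO. Of the 8 myeloid markers 2 were below the filter and not tested. In the same comparison 1 B cell and 1 thymocyte marker were called lower. The part of these cells in the result was not tested. In a population of cells, more dividing cells and more transcript per cell cannot be told apart.

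Mki67, which coats the surface of mitotic chromosomes and is the usual marker of proliferating cells, read 11.16 and 11.00 in WT and 12.58 and 12.61 in Foxo1KO. It read 12.16 on the Foxo1AAA array and 12.42 on the Foxo1KO/Foxo1AAA array. Both WT arrays were the lowest of the 6, and the difference between Foxo1KO and WT was 1.52 (SE 0.10, adjusted p = 2e-05, limma). Top2a, the topoisomerase that untangles sister chromatids, read 10.60 and 10.46 in WT, 11.89 and 11.84 in Foxo1KO, 11.83 in Foxo1AAA and 12.09 in Foxo1KO/Foxo1AAA. Its difference in the knockout was 1.33 (SE 0.10), a 2.52-fold rise, and the WT arrays again stood alone.

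Among the genes of mitotic entry, 8 of 9 rose in the knockout, with a median difference of 1.57. Cdk1, the kinase that drives entry, read 8.50 and 8.12 in WT, 10.21 and 10.05 in Foxo1KO, 10.35 in Foxo1AAA and 10.79 in Foxo1KO/Foxo1AAA. It rose by 1.82 in the knockout (SE 0.13, 3.53-fold, adjusted p = 3.1e-05, limma), and its highest value was on the Foxo1KO/Foxo1AAA array. Nek2, a kinase of the centrosome, read 8.18 and 7.87, then 9.93 and 9.94, then 9.69 and 10.09, and rose by 1.91 (SE 0.12). Its 4 values outside WT lay within 0.40 log2 units. The cyclin genes Ccna2 and Ccnb2 rose by 1.77 and 1.63, Cks2, whose product binds Cdk1, by 1.15, Plk1 by 1.57, Aurka by 1.42 and the kinase gene Melk by 1.41.

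Foxm1, a forkhead transcription factor known for driving genes of late cell cycle, was the exception. It read 8.47 and 8.50 in WT, 8.63 and 8.42 in Foxo1KO, 7.92 in Foxo1AAA and 8.22 in Foxo1KO/Foxo1AAA. The WT and Foxo1KO arrays overlapped, and the difference of 0.04 (SE 0.10) was not called (adjusted p = 0.82, limma), with -0.06 when the 1st Foxo1KO array was left out. Its probe sets disagreed. A dimmer probe set read 5.91 and 5.67 in WT, 6.39 and 6.30 in Foxo1KO, and 6.43 and 6.47 on the Foxo1AAA-bearing arrays, so that on it all 4 other arrays lay above both WT arrays. Which of them follows the Foxm1 transcript more closely was not tested.

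All 4 genes of the chromosomal passenger complex, which corrects faulty attachments of chromosomes to the spindle, rose in Foxo1KO. Birc5, or survivin, read 9.45 and 9.07 in WT, 11.17 and 11.21 in Foxo1KO, 10.75 in Foxo1AAA and 11.16 in Foxo1KO/Foxo1AAA. It rose by 1.93 (SE 0.13, 3.81-fold), with the Foxo1AAA array between the WT and Foxo1KO values. The kinase of the complex, Aurkb, read 7.29 and 6.89 in WT, 9.06 and 8.85 in Foxo1KO, 9.25 in Foxo1AAA and 9.85 in Foxo1KO/Foxo1AAA, and rose by 1.87 (SE 0.14) in the knockout. Cdca8, or borealin, rose by 1.38. Incenp, the scaffold, rose by 0.97 from 10.26 and 10.15 in WT to 11.19 and 11.17, among the smaller differences, and read 11.15 and 11.30 on the Foxo1AAA-bearing arrays.

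The 4 genes of the spindle assembly checkpoint, which delays anaphase until every chromosome is attached, also rose in the knockout, with a median of 1.75. Ttk, the kinase that starts the checkpoint signal, read 6.51 and 6.50 in WT, 8.28 and 8.24 in Foxo1KO, 8.65 in Foxo1AAA and 8.87 in Foxo1KO/Foxo1AAA. With replicates that close, its difference of 1.76 had an SE of 0.09 (adjusted p = 6.3e-06, limma), the lowest adjusted p among the 43 genes. Bub1, Mad2l1 and Bub1b rose by 1.78, 1.74 and 1.10.

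All 6 centromere and kinetochore genes rose in Foxo1KO. Nuf2, a subunit of the Ndc80 complex that grips microtubules, had the largest difference of the 43 genes, 1.99 (SE 0.16, 3.98-fold, adjusted p = 4.3e-05, limma). It read 8.13 and 7.60 in WT, 9.83 and 9.88 in Foxo1KO, 9.68 in Foxo1AAA and 10.02 in Foxo1KO/Foxo1AAA, and the spread of its WT arrays (SD 0.37) was among the widest. Ndc80 and Spc25, of the same complex, rose by 1.31 and 1.75. Cenpf, a large kinetochore protein, read 7.45 and 7.25 in WT, 8.90 and 8.87 in Foxo1KO, 9.54 in Foxo1AAA and 9.84 in Foxo1KO/Foxo1AAA, and rose by 1.53. Cenpe, a kinetochore motor, rose by 1.43. Cenpa, the histone variant that marks centromeres, read 10.53 and 10.33 in WT, 11.38 and 11.44 in Foxo1KO, 11.09 in Foxo1AAA and 11.48 in Foxo1KO/Foxo1AAA, and its rise of 0.98 was among the smallest that were called.

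The 10 kinesins and other spindle proteins all rose in the knockout, between 1.05 (Kif22) and 1.82 (Kif11). Kif11, the motor that pushes the spindle poles apart, read 7.86 and 7.31 in WT, 9.45 and 9.36 in Foxo1KO, 9.79 in Foxo1AAA and 9.90 in Foxo1KO/Foxo1AAA. Nusap1, a microtubule-binding protein, read 9.18 and 8.94, 10.75 and 10.60, 11.23, and 11.64, and rose by 1.62 (SE 0.11). Kif22, a motor that binds chromosome arms, read 10.91 and 10.63, 11.86 and 11.77, 11.52, and 11.66. On Nusap1 the Foxo1AAA-bearing arrays were the highest of the 6, whereas on Kif22 they lay between the WT and the Foxo1KO arrays. Tpx2, which activates Aurora A, read 7.40 and 7.36, 9.0 and 9.11, 9.04, and 9.53, and rose by 1.68. Prc1, which bundles the microtubules of the midzone, rose by 1.79, Kif4 by 1.59, Hmmr by 1.56, Kif23 by 1.54, and Kif20a and Kif2c by 1.51 each. Kif4 lies on the X chromosome.

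Of the 5 genes of anaphase and mitotic exit, 4 rose in Foxo1KO. Ube2c, which hands ubiquitin to the anaphase-promoting complex, read 9.36 and 9.02 in WT, 10.95 and 10.79 in Foxo1KO, 11.59 in Foxo1AAA and 11.91 in Foxo1KO/Foxo1AAA, a difference of 1.68 (SE 0.13) in the knockout. Cdc20, the activator of that complex, rose by 1.56, Espl1, the separase that cuts cohesin, by 1.59, and Cdca3 by 1.71, from 9.11 and 8.82 in WT to 10.66 and 10.68 in Foxo1KO. Cdca3 read 10.29 on the Foxo1AAA array and 10.82 on the Foxo1KO/Foxo1AAA array. Pttg1, or securin, the inhibitor of separase, read 12.14 and 12.19 in WT, 12.39 and 12.52 in Foxo1KO, and 12.10 on both Foxo1AAA-bearing arrays. Its Foxo1KO arrays lay above the others, but the difference of 0.29 (SE 0.10) missed the threshold (adjusted p = 0.063, limma), and adjusted p ran from 0.01 to 0.24 over the alternatives. The Pttg1 probe set is the brightest of the 43 in WT, and its other probe sets differed: 1 read 10.11 and 9.88 in WT, 10.41 and 10.55 in Foxo1KO, 10.23 in Foxo1AAA and 10.18 in Foxo1KO/Foxo1AAA. The 3 genes of cytokinesis rose as well, Ect2 by 1.58, Anln by 1.35 and Racgap1 by 1.31.

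**Figure D2:**
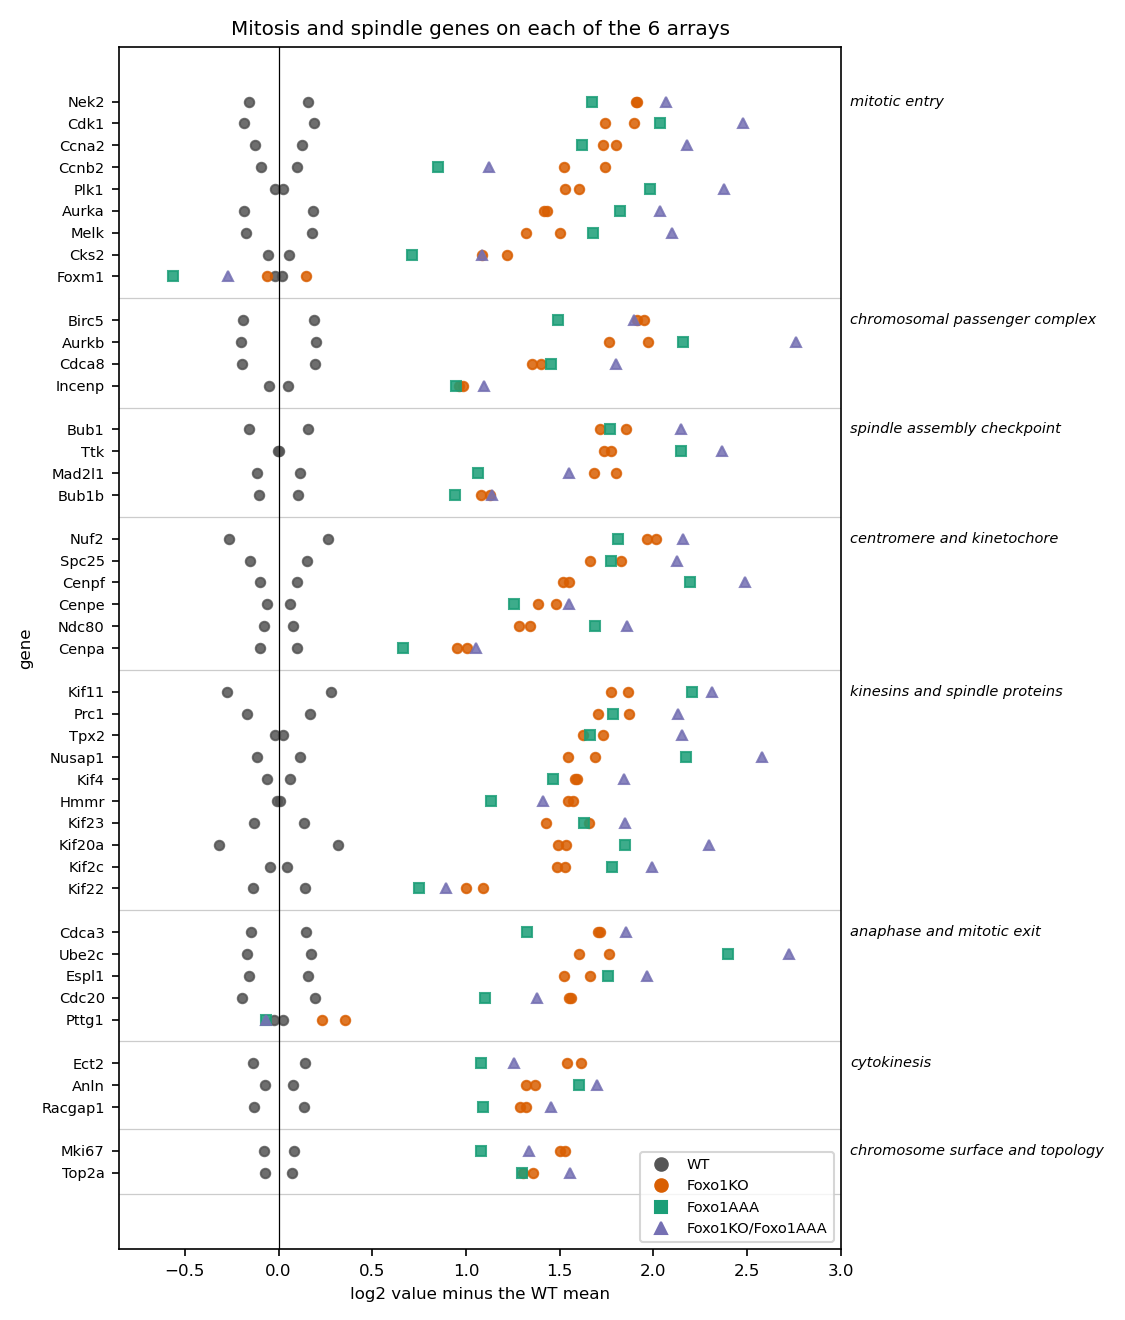
Level of each of the 43 mitosis genes on each of the 6 arrays, in log2 units relative to the mean of both WT arrays, with 1 point per array and genes grouped by role. For 41 genes all 4 arrays outside WT lie to the right of both WT arrays; Foxm1 and Pttg1 are the exceptions.

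The WT arrays themselves were not alike. The mean over the 43 genes was 8.65 on the 1st WT array and 8.42 on the 2nd, and the 1st was the higher for 39 of the 43 genes, with a median gap of 0.25 against -0.00 for all tested genes. Foxo1KO arrays had means of 10.02 and 10.01 and a median gap of 0.02. The gap within WT was smaller than the difference between the groups, and 41 genes were called with either WT array left out. The WT array without Eif2s3y signal was thus the one with the higher mitosis genes, whereas the Foxo1KO arrays, which differed in Eif2s3y in the same way, had near equal means.

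Active Foxo1 on its own did not go with low mitosis genes. On the lone Foxo1AAA array 41 of the 43 genes were called higher than WT and 1 lower, with a median difference of 1.62, against -0.02 for all tested genes. Of all tested genes 13.4% were called higher and 14.1% lower. Higher genes made up 48.8% of the calls, and 69.1% after centring each array on its median, which moved the median of all genes by 0.11. This comparison shares its WT arrays with the one of Foxo1KO, so the likeness of their values is not independent, and the lone array was assumed to vary like the replicated groups. On the values alone, both Foxo1AAA-bearing arrays lay above both WT arrays for 41 of the 43 genes, as they did for 34.4% of all tested genes.

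On the Foxo1AAA array 6 of 8 myeloid, 7 of 8 dendritic and 4 of 6 B cell markers were called higher than WT, and on the Foxo1KO/Foxo1AAA array likewise 6, 7 and 4. The other 2 myeloid markers, Itgam and S100a8, fell below the filter and were not tested. Itgam read 4.40 and 4.60 in WT, 5.27 in Foxo1AAA and 5.26 in Foxo1KO/Foxo1AAA. S100a8 read 4.72 and 4.73, 5.70, and 5.65 in the same order. The dendritic marker Zbtb46 was called lower on each of these 2 arrays (-0.88 and -0.68). Of the 5 plasma cell markers 3 were called higher and 1 lower on each. Of the 5 CD8 T and NK markers 2 were higher and 1 lower on Foxo1AAA, and 3 and 0 on Foxo1KO/Foxo1AAA. The largest differences of mitosis genes on the Foxo1AAA array were those of Ube2c (2.40, SE 0.16, 5.27-fold), Kif11 (2.21, SE 0.20), Cenpf (2.19, SE 0.13) and Nusap1 (2.17, SE 0.14). The smallest of those called higher were Cenpa (0.66, SE 0.13), Cks2 (0.71, SE 0.12) and Kif22 (0.75, SE 0.14). Cks2 read 10.91 and 10.80 in WT, 11.94 and 12.07 in Foxo1KO, 11.57 in Foxo1AAA and 11.94 in Foxo1KO/Foxo1AAA. Foxm1 was the gene called lower, by 0.57 (difference -0.57, SE 0.13, adjusted p = 0.013, limma), but the mean of its probe sets gave 0.08. Pttg1 differed by -0.07 (SE 0.12), and by 0.05 after centring, and was not called. Mki67 was 1.08 above WT (SE 0.12) and Cdk1 2.04 (SE 0.16).

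The mitosis genes were not at the WT level on the lone array where active Foxo1 was added to the knockout. That array also differed from WT in marker sums of myeloid, dendritic and B cells and in Xist, which cannot be told apart from the transgene. On the Foxo1KO/Foxo1AAA array 41 of 43 genes were called higher than WT and 0 lower, with a median difference of 1.86, against -0.02 for all tested genes, of which 17% were called higher and 13.7% lower. Higher genes made up 55.3% of all calls, and 69.3% after centring. The largest differences were Aurkb (2.76, SE 0.17, 6.78-fold, adjusted p = 2.1e-05, limma), Ube2c (2.72, SE 0.16), Nusap1 (2.58, SE 0.14) and Cenpf (2.49, SE 0.13). The smallest of those called were Kif22 (0.89, SE 0.14) and Cenpa (1.05, SE 0.13). Foxm1 and Pttg1 were not called, at -0.27 (SE 0.13) and -0.07 (SE 0.12), and the mean of all probe sets turned Foxm1 to 0.23 while centring turned Pttg1 to 0.01. All 4 arrays outside WT lay above both WT arrays for 41 of the 43 genes, a pattern that 14.5% of all tested genes showed.

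Set directly against Foxo1KO, the Foxo1KO/Foxo1AAA array had 15 of the 43 genes called higher and 2 called lower. Among all tested genes 19.6% were called higher and 20.2% lower, so the share of mitosis genes called lower was below that of all genes. Higher genes made up 49.2% of all calls, and 60.6% after centring. The median difference of the mitosis genes was 0.31, against -0.02 for all tested genes. Without the 1st or the 2nd Foxo1KO array 10 and 11 genes were called in place of 17, and 7 were called at an adjusted p under 0.01. Both Foxo1AAA-bearing arrays lay above both Foxo1KO arrays for 16 genes and below both for 11, against 35.7% and 40.4% of all tested genes.

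Ube2c (1.04, SE 0.16, adjusted p = 0.0015, limma), Nusap1 (0.96, SE 0.14), Cenpf (0.96, SE 0.13), Aurkb (0.90, SE 0.17) and Plk1 (0.81, SE 0.11) led the genes called higher than in Foxo1KO. The others called higher were Kif20a, Melk, Cdk1, Ttk, Aurka, Ndc80, Kif2c, Tpx2, Ccna2 and Anln, between 0.35 and 0.78. Tpx2 was -0.31 by the mean of its probe sets. The 2 genes that were lower were Ccnb2 and Pttg1. Ccnb2, a B-type cyclin, read 9.91 and 9.72 in WT, 11.34 and 11.56 in Foxo1KO, 10.67 in Foxo1AAA and 10.94 in Foxo1KO/Foxo1AAA. Its values on the Foxo1AAA-bearing arrays lay between those of WT and Foxo1KO. The difference from Foxo1KO was -0.51 (SE 0.14, adjusted p = 0.02, limma), with an adjusted p = 0.08 without the 2nd Foxo1KO array (0.0082 to 0.08 over the alternatives). Pttg1 differed by -0.36 (SE 0.12, adjusted p = 0.039, limma), with an adjusted p from 0.0071 to 0.12 over the alternatives. Ect2, which acts in cytokinesis, read 8.57 and 8.30 in WT, 10.05 and 9.97 in Foxo1KO, 9.52 in Foxo1AAA and 9.69 in Foxo1KO/Foxo1AAA, and its difference of -0.32 (SE 0.14) was not called.

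The order of the groups outside WT was not the same for every gene, and the 16 genes with both Foxo1AAA-bearing arrays above Foxo1KO were a share near that of all tested genes (35.7%). Cdk1, Plk1, Aurka, Melk, Aurkb, Cdca8, Ttk, Cenpf, Ndc80, Kif11, Kif20a, Kif2c, Nusap1, Ube2c, Espl1 and Anln were highest on the Foxo1AAA-bearing arrays. Ccnb2, Cks2, Foxm1, Birc5, Mad2l1, Kif22, Hmmr, Cdc20, Pttg1, Ect2 and Mki67 were higher on the Foxo1KO arrays than on both of these. These genes were grouped by arrays that also enter the comparison of Foxo1KO/Foxo1AAA and Foxo1KO. Calls within each group were thus partly fixed in advance and are not counted here. In the same comparison the mean of all probe sets turned Cks2 (0.14), Foxm1 (0.05), Kif22 (0.50) and Hmmr (0.36) to higher, and a dimmer probe set of Cdc20 differed by 0.18. Centring turned the sign of Cks2 (0.01) and Birc5 (0.05), and quantile normalization that of Bub1b (-0.14), Cenpe (-0.08) and Racgap1 (-0.02).

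Loss of the endogenous gene was also compared where active Foxo1 was present on both sides, which rests on the 2 lone arrays and shares no array with the comparison of Foxo1KO and WT. Of the 43 genes 0 were called by limma. Over all tested genes 0.066% were called higher and 0.00733% lower, 9 genes and 1 gene, with higher genes 90% of these calls, 72.4% after centring and 75% after quantile normalization. The Foxo1KO/Foxo1AAA array was the higher for 42 of the 43 genes, against 55.6% of all tested genes, with a median difference of 0.32 against 0.02. The replicate arrays of WT differed by nearly as much, with the 1st the higher for 39 of the 43 genes by a median of 0.25. The largest differences were those of Aurkb (0.60, SE 0.20), Ccna2 (0.56, SE 0.16), Cdca3 (0.53, SE 0.16) and Tpx2 (0.49, SE 0.13). Ccna2 read 9.18 and 8.94 in WT, 10.79 and 10.86 in Foxo1KO, 10.68 in Foxo1AAA and 11.24 in Foxo1KO/Foxo1AAA. Kif22 (0.14), Kif11 (0.11), Anln (0.10) and Pttg1 (-0.00) differed least. Anln, the scaffold of the contractile ring, read 7.04 and 6.89 in WT, 8.33 and 8.28 in Foxo1KO, 8.57 in Foxo1AAA and 8.66 in Foxo1KO/Foxo1AAA.

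The difference between these knockout differences was tested with an interaction term. With active Foxo1 present, the difference made by the knockout was smaller for 39 of the 43 genes and larger for 0, with a median of -1.24 log2 units against 0.01 for all tested genes. Of all tested genes 3.14% were called lower and 2.81% higher by this test. The largest were Kif11 (-1.71, SE 0.28, adjusted p = 0.011, limma), Nuf2 (-1.64, SE 0.27), Ttk (-1.54, SE 0.16, adjusted p = 0.0018, limma) and Birc5 (-1.53, SE 0.22). At an adjusted p under 0.01, 23 genes were called. Kif20a (-1.07), Cenpa (-0.59), Pttg1 (-0.30) and Foxm1 (0.25) were not called. A probe set of Ttk other than the kept one gave the opposite sign. Across the 43 genes the knockout difference with active Foxo1 had a median of 19.4% of that without it, and was the smaller for 42 genes. The Foxo1AAA array, which is the base of the knockout difference with active Foxo1, was itself 1.62 above WT in the median of the 43 genes.

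**Figure D3:**
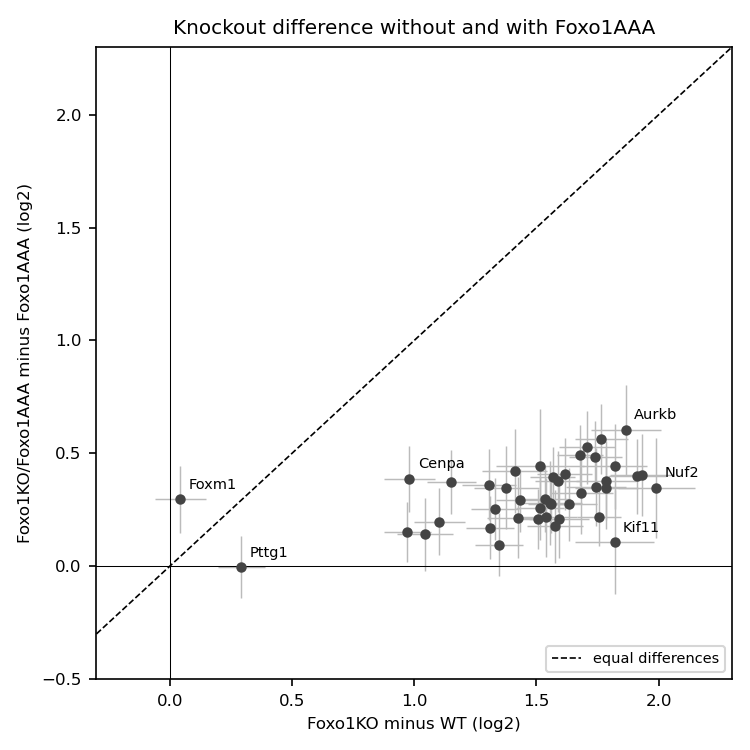
Each point is 1 of the 43 mitosis genes; the horizontal axis gives Foxo1KO minus WT and the vertical axis Foxo1KO/Foxo1AAA minus Foxo1AAA, both in log2 units with standard errors. All genes but Foxm1 lie below the dashed line of equal differences, with medians of 1.56 on the horizontal and 0.32 on the vertical axis.

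Many of these genes have several probe sets on the array, which serve as a check within the data. The 43 genes had 98 probe sets, 86 of them above the filter on dim signals, and 27 genes had more than 1 above it. Calls of probe sets came from a separate fit, with p adjusted over all 45101 probe sets. A kept probe set can therefore differ in its call from its gene. The shares of all probe sets called are not given here. In Foxo1KO against WT 73 of the 86 were called higher and 0 lower, and signs differed between probe sets of a gene only for Cenpa and Pttg1. On the Foxo1AAA array 71 were called higher and 7 lower than WT, and on the Foxo1KO/Foxo1AAA array 74 and 4. Signs differed for 8 genes in the former (Cdca3, Cenpf, Foxm1, Incenp, Kif2c, Pttg1, Tpx2 and Ttk) and for 5 in the latter. Between Foxo1KO/Foxo1AAA and Foxo1KO, signs differed for 12 of the 27 genes. In the interaction 48 of the 86 were called lower and 0 higher. Signs there differed for 8 genes (Bub1, Cenpa, Cenpf, Foxm1, Incenp, Kif2c, Spc25 and Ttk). Of the 6 tests, signs differed for the fewest genes between Foxo1KO and WT and for the most between Foxo1KO/Foxo1AAA and Foxo1KO. Cenpf is an example: its 2nd brightest probe set read 6.59 and 6.39 in WT, 6.93 and 6.88 in Foxo1KO, 6.16 in Foxo1AAA and 6.74 in Foxo1KO/Foxo1AAA, whereas the dimmest read 4.93 and 5.05, 5.65 and 5.55, 7.28, and 7.52.

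**Figure D4:**
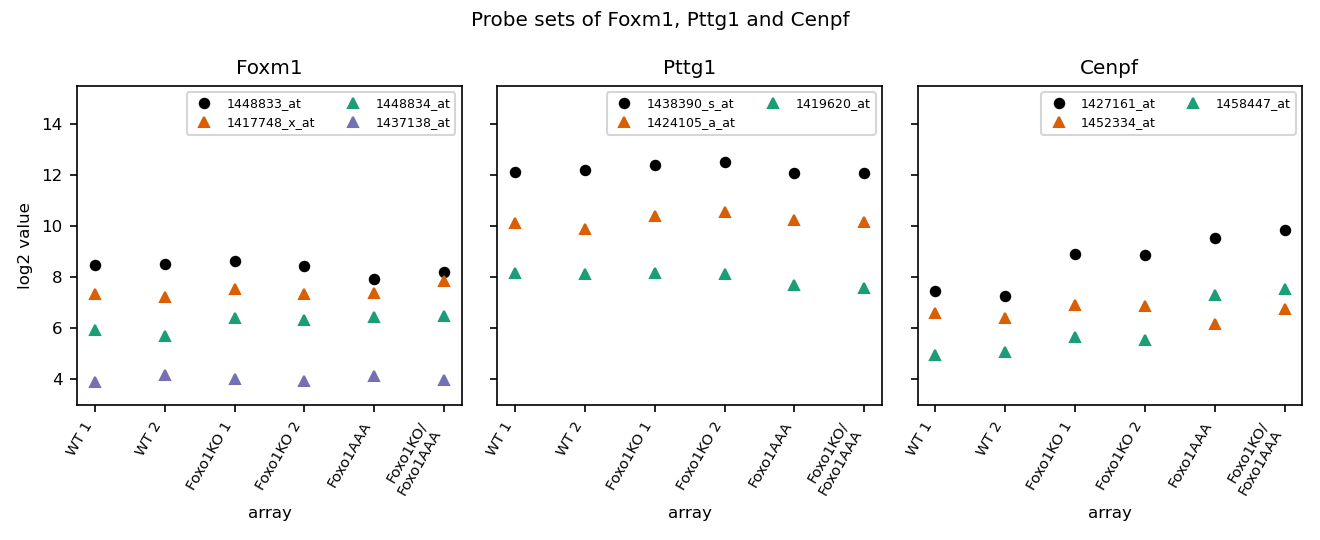
Log2 values of each probe set of Foxm1, Pttg1 and Cenpf on the 6 arrays, with circles for the probe set kept for the gene and triangles for the others. The kept Cenpf probe set rises from 7.45 and 7.25 in WT to 9.84 in Foxo1KO/Foxo1AAA, while the next reads 6.59, 6.39 and 6.74 there; for Foxm1 the kept probe set is lowest in Foxo1AAA (7.92) and a dimmer one is lowest in WT (5.91 and 5.67).

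Other genes of the cell cycle were read from 7 lists by role that hold none of the 44 genes, with 173 genes tested. These lists too were written with earlier results of these data known. In Foxo1KO against WT 117 of them rose and 7 fell, with a median of 0.68, against 11.2% higher and 10.7% lower among all tested genes. Further genes of mitosis rose in 46 of 55 cases (median 1.13), led by Depdc1a (2.15, SE 0.25) and by Cep55 (2.01, SE 0.15), which acts in the final cut between daughter cells, while the phosphatase gene Cdc25b fell by 0.64. Genes of DNA replication rose in 35 of 38 cases (median 0.72), led by Rrm2 (1.81), a subunit of ribonucleotide reductase, and Uhrf1 (1.68), which carries DNA methylation through replication. Regulators of the step from G1 to S phase rose in 16 of 20 cases (median 0.75), led by the atypical E2F genes E2f8 (1.99) and E2f7 (1.75). Condensin and cohesin genes rose in 11 of 20 cases, led by Esco2 (2.02) and Cdca5 (1.87), both of which act in joining sister chromatids, and Smc4 fell by 0.47.

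The smaller lists that follow were not tested against the shares of all tested genes in Foxo1KO, 11.2% called higher and 10.7% lower. Of 16 genes of the anaphase-promoting complex and its regulators, 3 rose and 0 fell, with a median of 0.00, although its coactivator Cdc20 and its ubiquitin carrier Ube2c, both among the 43 genes, rose. The leading one, Fbxo5 (1.23), encodes an inhibitor of the complex, and the subunit gene Anapc15 rose by 0.45. Of 13 genes of MuvB, pocket proteins and repressor E2F, 3 rose, among them Rbl2 (0.92) and Rbl1 (0.51), and Tfdp2 fell by 0.54. Among 11 inhibitors of cyclin-dependent kinases and other brakes on growth, 3 rose and 4 fell, so that members went both ways around a median of 0.15. Of the 11, 5 were called with a difference of at least 2-fold, as were 584 of all 13645 tested genes. Cdkn2c (1.71) and Cdkn1a (1.25) rose, and Tob1 fell by 1.40 and Cdkn1c by 1.07.

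Where active Foxo1 was present these lists were again mostly higher than WT. Of the 173 genes, 101 were called higher and 7 lower on the Foxo1AAA array (median 0.57), against 13.4% and 14.1% of all tested genes. On the Foxo1KO/Foxo1AAA array 112 were called higher and 5 lower (median 0.72), against 17% and 13.7%. Between Foxo1KO/Foxo1AAA and Foxo1KO, 38 were called higher and 19 lower, against 19.6% and 20.2% of all tested genes, with a median of 0.04, which became -0.06 under quantile normalization. Without the 1st Foxo1KO array 33 were called in place of 57. The regulators of the G1 to S step had more genes lower (6) than higher (3) there: Myb was lower by 1.09 (difference -1.09) and the cyclin gene Ccnd3 by 0.71 (difference -0.71), whereas Skp2 (1.07) and Cdk4 (1.01) were higher. Tob1, which fell in the knockout, read 11.09 and 10.94 in WT, 9.64 and 9.59 in Foxo1KO, 11.22 in Foxo1AAA and 11.04 in Foxo1KO/Foxo1AAA. On this gene, a brake on growth, the Foxo1AAA-bearing arrays were within the range of WT or just above it while the mitosis genes were not, and it was 1.43 higher than in Foxo1KO (SE 0.12). Cdkn1a, the p21 inhibitor, read 7.38 on both WT arrays, 8.69 and 8.58 in Foxo1KO, 7.46 in Foxo1AAA and 8.03 in Foxo1KO/Foxo1AAA, and was -0.60 relative to Foxo1KO (SE 0.12). Btg2, another brake, was 1.49 higher than in Foxo1KO (SE 0.14). Differences between lists were not tested.

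**Figure D5:**
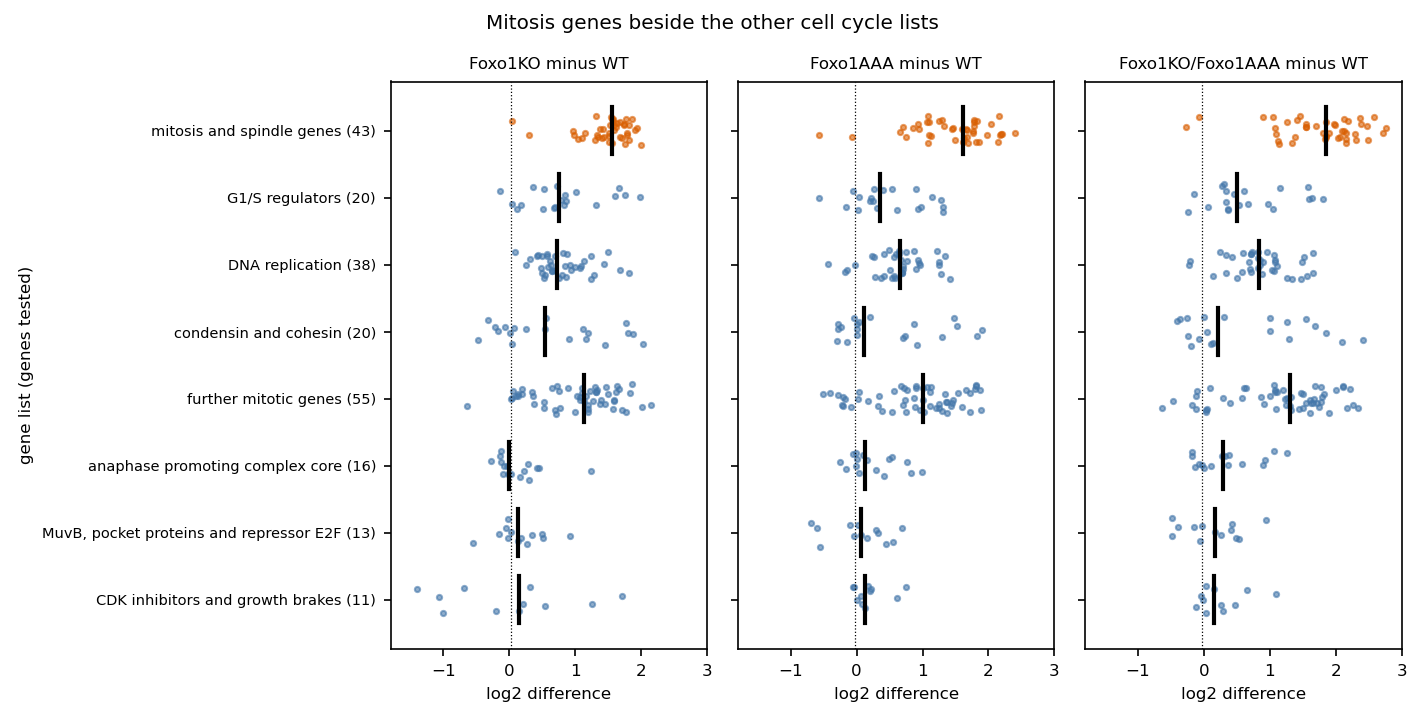
Log2 differences from WT of the 43 mitosis genes and of the genes of 7 other cell cycle lists, 1 point per gene, in Foxo1KO, Foxo1AAA and Foxo1KO/Foxo1AAA; thick bars are list medians and the dotted line is the median of all tested genes. The mitosis genes have medians of 1.56, 1.62 and 1.86, and the inhibitors of cyclin-dependent kinases and other brakes have medians of 0.15, 0.13 and 0.15, with members spread to both sides of the dotted line (Cdkn2c 1.71 and Tob1 -1.40 in Foxo1KO).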

How the data were processed

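Total RNA of sorted regulatory T cells was isolated with miRNeasy, and 2 ug went into biotin-labelled cRNA, per the labels' protocols. The authors deposited log2 values of 45101 probe sets, made with RMA in R 2.15 with limma 3.12.1, per the submitters' processing notes. RMA quantile-normalizes the arrays together, so a shift of most transcripts would be hidden, and very bright or dim probe sets can understate differences. Probe sets listed with 1 gene (34958) were used; 932 listed with several and 9211 not listed were left out. Per gene the probe set with the highest mean was kept, and the lowest 25% of genes by mean were left out (dimmest kept mean 5.47).

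One limma model (3.58.1, R 4.3.3) held the 4 groups and used an empirical Bayes prior. For the counts of probe sets the same model was fitted apart to all 45101 probe sets, with p adjusted over these. The spread had 2 residual degrees of freedom, from the WT and Foxo1KO pairs, and the prior 6.59 with an SD of 0.10. The lone arrays were assumed to vary alike, and the number of arrays limits the precision. Tests were two-sided, with calls where p adjusted by Benjamini-Hochberg over 13645 genes was under 0.05; an exact permutation of 2 arrays against 2 cannot go below p = 0.333. The script was tested on simulated data. Values on each array are printed for Mki67, Top2a, Cdk1, the 4 largest and 4 smallest differences per comparison and calls in a direction shared by at most 5 genes; of each other list, up to 2 genes called each way are named. Further values, among them those of Tpx2, Cdca3 and of other probe sets, were chosen after seeing the data where a result turned on them. Members and lists were chosen with earlier results of these data known. Alternatives were other filters, probe set rules, priors, scalings, a threshold of 0.01, leaving out arrays, and a replicate block.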

Additional observations from a re-analysis of the deposited data

Results flagged for a closer look

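The difference that loss of Foxo1 made was unequal with and without active Foxo1 for 39 of the 43 mitosis genes, by the interaction test of limma at an adjusted p under 0.05. Each value is the knockout difference with Foxo1AAA minus that without, in log2 units, and a negative value means that the difference was smaller with it. The median of the 43 genes was -1.24, against 0.01 for all tested genes, and the shares of all tested genes called are given above. The Foxo1AAA array, the base of the difference with Foxo1AAA, was itself 1.62 above WT in the median of the 43 genes. Among genes of mitotic entry the values were those of Ccna2 (-1.20), Ccnb2 (-1.36), Cdk1 (-1.38), Cks2 (-0.78), Plk1 (-1.17), Aurka (-1.21), Nek2 (-1.51) and Melk (-0.99). In the chromosomal passenger complex they were Aurkb (-1.26), Birc5 (-1.53), Incenp (-0.82) and Cdca8 (-1.03). In the spindle assembly checkpoint they were Bub1 (-1.40), Bub1b (-0.90), Ttk (-1.54) and Mad2l1 (-1.26). Among centromere and kinetochore genes they were Cenpe (-1.14), Cenpf (-1.24), Ndc80 (-1.14), Nuf2 (-1.64) and Spc25 (-1.39). Kinesins and spindle proteins gave Kif11 (-1.71), Kif2c (-1.30), Kif4 (-1.21), Kif22 (-0.90), Kif23 (-1.32), Tpx2 (-1.19), Nusap1 (-1.21), Hmmr (-1.28) and Prc1 (-1.44). Genes of anaphase and mitotic exit gave Cdc20 (-1.28), Ube2c (-1.36), Espl1 (-1.38) and Cdca3 (-1.18), those of cytokinesis Anln (-1.25), Ect2 (-1.40) and Racgap1 (-0.94), and those of chromosome surface and topology Top2a (-1.08) and Mki67 (-1.26). All 39 rest on 1 array of Foxo1AAA and 1 of Foxo1KO/Foxo1AAA, both with myeloid marker sums of at least 8555 against at most 1635 elsewhere, and the part of those cells was not tested. For Kif20a (-1.07), Cenpa (-0.59), Pttg1 (-0.30) and Foxm1 (0.25) the term was not called. Among the 39, Bub1, Cenpf, Incenp, Kif2c, Spc25 and Ttk had another probe set of the opposite sign. Of the 86 probe sets above the filter, 48 were called lower.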

How the results depend on the processing

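In Foxo1KO against WT 41 or 42 of the 43 mitosis genes were called under each of the alternatives run, and in Foxo1AAA and Foxo1KO/Foxo1AAA against WT the counts stayed within 1.5 times of 42 and 41. The fit of the WT and Foxo1KO arrays alone, chosen after seeing the data, called 41. The replicate numbers did not pair the arrays (correlation of replicate differences -0.096, 2 pairs), and a fit with the replicate number as a block called 41 and changed no call of a mitosis gene. Between Foxo1KO/Foxo1AAA and Foxo1KO, 7 genes were called at an adjusted p under 0.01 in place of 17, and 10 to 22 when 1 array was left out; of the other lists 25 were called at 0.01 in place of 57, and 33 to 62 when 1 array was left out. Between the lone arrays, the mean of all probe sets called 1 mitosis gene, Bub1, and leaving out 1 array called 0 to 1 genes of the other lists, in place of 0. The interaction called 23 mitosis genes at 0.01 in place of 39, and 15 genes of the other lists in place of 60, with 24 to 73 when 1 array was left out.

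Signs turned as follows, and the cause was not tested. Foxm1 in Foxo1KO against WT ran from -0.062 without the 1st Foxo1KO array to 0.148 without the 2nd. The mean of all probe sets turned, between Foxo1KO/Foxo1AAA and Foxo1KO, Cks2 (0.14), Nek2 (-0.46), Foxm1 (0.054), Kif22 (0.50), Tpx2 (-0.31), Hmmr (0.36) and Cdca3 (-0.36). It also turned Foxm1 (0.077) and Cdca3 (-0.019) in Foxo1AAA against WT, Foxm1 (0.23) in Foxo1KO/Foxo1AAA against WT and Foxm1 (-0.023) in the interaction. Centring turned Cks2 (0.012) and Birc5 (0.045) against Foxo1KO, and Pttg1 in Foxo1AAA (0.046) and Foxo1KO/Foxo1AAA (0.0072) against WT. Quantile normalization turned Bub1b (-0.14), Cenpe (-0.077), Racgap1 (-0.017) and the median of the other lists (-0.057) against Foxo1KO. Signals near background or near the top of the scale can understate differences, which was not tested.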
